A study of Mus musculus with 9 samples.

Results

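The unfolded protein response and the integrated stress response were followed through 33 mouse genes, of 56289 genes in the deposited table. The genes were listed by name from their known function and fall into 15 chaperones and folding enzymes of the endoplasmic reticulum (ER), 7 genes of ER-associated degradation, 4 genes for the stress sensors and the transcription factor Xbp1, and 7 genes of the integrated stress response. This rule names no expression value, but the list was made with earlier results of these data known, so the counts below are not independent evidence. All 33 passed the filter for testing. Poly(A) RNA was sequenced in 9 libraries of cells labelled RAW264.7, a murine macrophage-like line from BALB/c. They form 3 groups of 3 libraries: untreated cells (Con), cells given recombinant human TNF-α at 20 ng/ml for 24 h (TNF-α), and cells given TNF-α together with WBT at 1.0 μg/ml (TNF-α+WBT). WBT is the Wang Bi tablet, a multi-herb preparation used in rheumatoid arthritis, and the sample labels write the third group as WBP. All groups come from 1 cell line in culture, and the study calls the libraries of a group biological replicates, while the labels do not say whether they came from separate cultures, so the p-values below measure the spread between these libraries.

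When unfolded proteins collect in the ER, the sensors PERK (gene Eif2ak3), IRE1 (Ern1) and ATF6 (Atf6) start the unfolded protein response, which raises chaperones, folding enzymes and the machinery that exports misfolded proteins for degradation. IRE1 acts by splicing the Xbp1 mRNA, and PERK acts by phosphorylating the translation factor eIF2α, a step that it shares with kinases sensing amino acid lack, viral RNA or haem lack and that opens the integrated stress response. Phosphorylated eIF2α favours translation of ATF4, which with CHOP (Ddit3) drives genes such as Trib3, Chac1, Asns and Sesn2. ATF4 and the XBP1 switch act largely after transcription, at steps that mRNA levels do not measure.

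The estimated depth was 16840000 to 25840000 fragments per library. It was read from the step that 1 fragment adds to low FPKM values (fragment numbers divided by transcript length and library depth), and in each library 56.3% to 60.3% of such values fell within 0.1 of a whole fragment number, against 20% by chance. The label of the cells was not borne out by their markers. Of 18 macrophage markers 1, Cd14, was above 1 FPKM in all libraries and 9 were listed at 0 in all of them, Ptprc, Spi1, Itgam and Adgre1 included. Of 18 fibroblast markers 13 were above 1 FPKM in all libraries, as were 7 of 11 Schwann cell markers, with Sox10 at a mean of 91.3 FPKM, while none of 6 epithelial and 6 endothelial markers was. The summed level of the Schwann cell list was 528 to 542 FPKM in Con, 363 to 412 in TNF-α and 406 to 434 in TNF-α+WBT, and its part in the differences below was not tested. In bulk RNA, fewer cells of a type and less RNA per cell cannot be told apart.

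The genes were expressed over a wide range. Averaged over the 9 libraries, 8 genes lay above 100 FPKM, 18 between 10 and 100, 6 between 1 and 10, and 1 below 1. The ER-resident chaperones and folding enzymes led the order of levels per length. Calr (calreticulin, a lectin chaperone that binds calcium) had the highest mean, 447 FPKM, followed by Hsp90b1 (GRP94) at 407 FPKM and P4hb (protein disulfide isomerase) at 350 FPKM. Hspa5, which encodes the master chaperone BiP, had a mean of 131 FPKM. Atf4 reached a mean of 112 FPKM, the highest of the stress response genes, whereas Chac1 (a glutathione-degrading enzyme) had a mean of 4.32 FPKM and Trib3 (a pseudokinase that restrains ATF4 and AKT) 7.66 FPKM. Derl3, a derlin of the retrotranslocation machinery, was at 0.252 FPKM and rested on 1.04 to 9.82 estimated fragments per library. Differences between groups in Derl3 were not detectable at this depth.

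**Figure D1:**
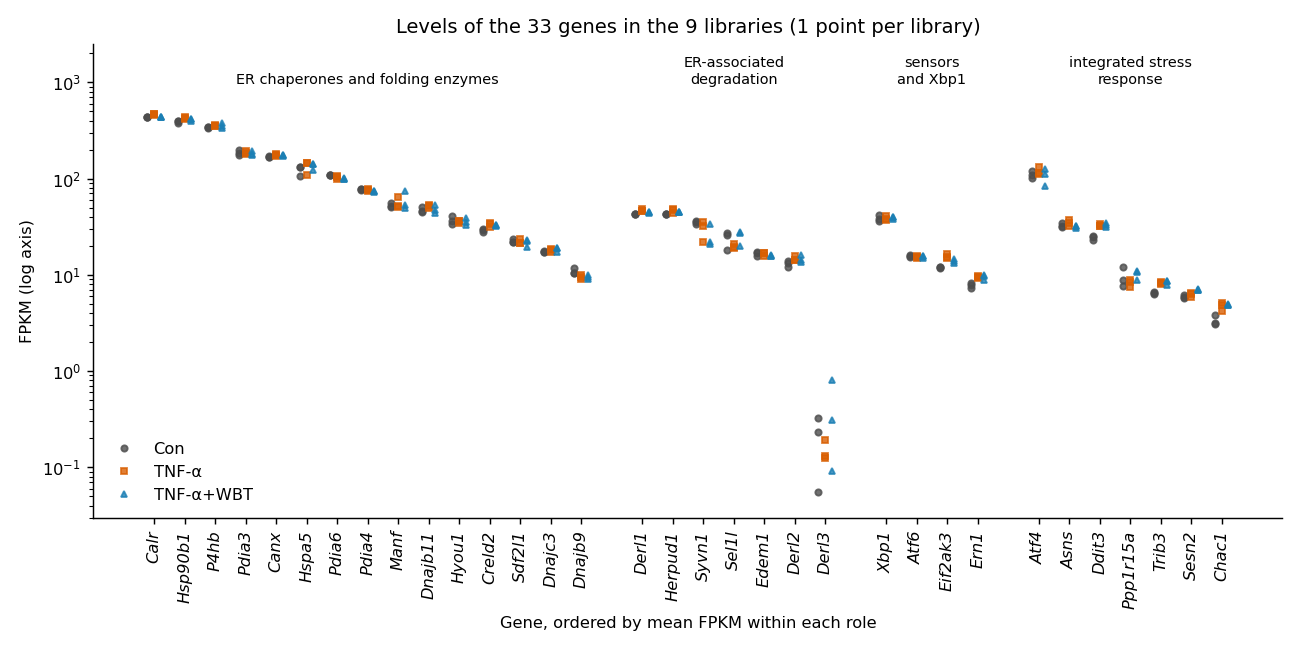
FPKM of each of the 33 genes on a log axis, 1 point per library, with Con as circles, TNF-α as squares and TNF-α+WBT as triangles. Levels between genes differ far more than levels between groups, from Calr at a mean of 447 FPKM to Derl3 at 0.252 FPKM.

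Promoter sequences were read for elements of the regulators named above. A few are shown because the members holding the ER element and those holding the ATF4 element can then be set beside the values. RefSeq promoters (GRCm38.p6, 250 bases before to 50 after the start) were given for 29 of the 33 genes and were searched on both strands. The ER stress response element, spelled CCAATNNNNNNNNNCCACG and read by ATF6 and XBP1 with NF-Y, was present in 9 of the 29, namely Hspa5, Hsp90b1, Calr, Canx, Pdia6, Dnajc3, Creld2, Syvn1 and Derl3, against 0.119% of all 32851 promoters. Its second form, ATTGG and CCACG set apart by 1 free base, which holds CCACG and the reverse complement of CCAAT, was in Herpud1 and Dnajb11, against 0.0365% of all promoters. The ATF4 composite element TGATGNAA was in Asns, Chac1, Herpud1 and Trib3, against 3.97% of all promoters, and in Trib3 it lay 15 bases after the RefSeq start. The element TGACGTGG, which holds the reverse complement of CCACG, was in none of the 29 and in 0.676% of all promoters. A match is a description of letters and not a site of binding. The windows below run 5′ to 3′ along the gene with up to 20 bases on each side, and the capitals mark the fixed letters of the element.
Calr, ER stress response element on the opposite strand, chr8:84847055-84847113, minus strand gene: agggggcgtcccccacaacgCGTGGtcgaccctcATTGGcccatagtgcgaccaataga
Hsp90b1, same element on the gene's strand, chr10:86705618-86705676, minus strand gene: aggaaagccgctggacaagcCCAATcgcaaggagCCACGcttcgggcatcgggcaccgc
Hsp90b1, same element on the opposite strand, chr10:86705513-86705571, minus strand gene: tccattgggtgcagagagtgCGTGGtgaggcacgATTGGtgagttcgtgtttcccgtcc
Pdia6, same element on the gene's strand, chr12:17266471-17266529, plus strand gene: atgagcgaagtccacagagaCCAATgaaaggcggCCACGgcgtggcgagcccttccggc
Creld2, same element on the opposite strand, chr15:88819500-88819558, plus strand gene: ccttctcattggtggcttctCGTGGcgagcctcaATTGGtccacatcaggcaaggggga
Herpud1, second form on the gene's strand, chr8:94386357-94386407, plus strand gene: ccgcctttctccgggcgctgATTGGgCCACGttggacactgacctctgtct
Herpud1, ATF4 element on the opposite strand, chr8:94386297-94386344, plus strand gene: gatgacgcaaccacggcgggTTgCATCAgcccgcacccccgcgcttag
Chac1, ATF4 element on the opposite strand, chr2:119351029-119351076, plus strand gene: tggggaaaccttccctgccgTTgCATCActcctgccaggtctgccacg

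The first comparison asked what TNF-α did to these genes. Of the 33, 4 were higher in TNF-α than in Con at an adjusted p under 0.05 in limma, and 0 were lower. The 4 were Ddit3, Eif2ak3, Trib3 and Chac1, with folds of 1.27 to 1.40, and none of them was a chaperone, a folding enzyme or a degradation gene. This depended on the genes fitted. When only genes averaging 1 FPKM or more were fitted, 8 were called, with Calr, Creld2, Derl1 and Ern1 added, among 1369 of 12686 genes. With coding transcripts alone 9 were called, with Herpud1 added to these, among 1218 of 15118 genes. In the fit that gave the 4 calls, 2.94% of all 25417 genes tested were called higher and 1.93% lower. Of the 12684 genes there that averaged 1 FPKM or more, as 32 of the 33 do, 5.09% were called higher and 3.28% lower. At an unadjusted p under 0.05, 12 of the 33 passed, 10 higher and 2 lower, against 16.1% of all genes tested and 24.1% of those that averaged 1 FPKM or more. None of the 33 also passed a fold change over 2, the thresholds of the study, which 2.42% of all genes did. The groups did not overlap for 13 genes that were higher and 2 that were lower in TNF-α. The shares were 11.1% and 10.2% over all genes, and 15.5% and 14.6% over those that averaged 1 FPKM or more. The median difference over the 33 genes was 0.06 on the log2(FPKM + 0.1) scale and that over all genes was below 0.01 in size. Folds here and below are of FPKM + 0.1.

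**Figure D2:**
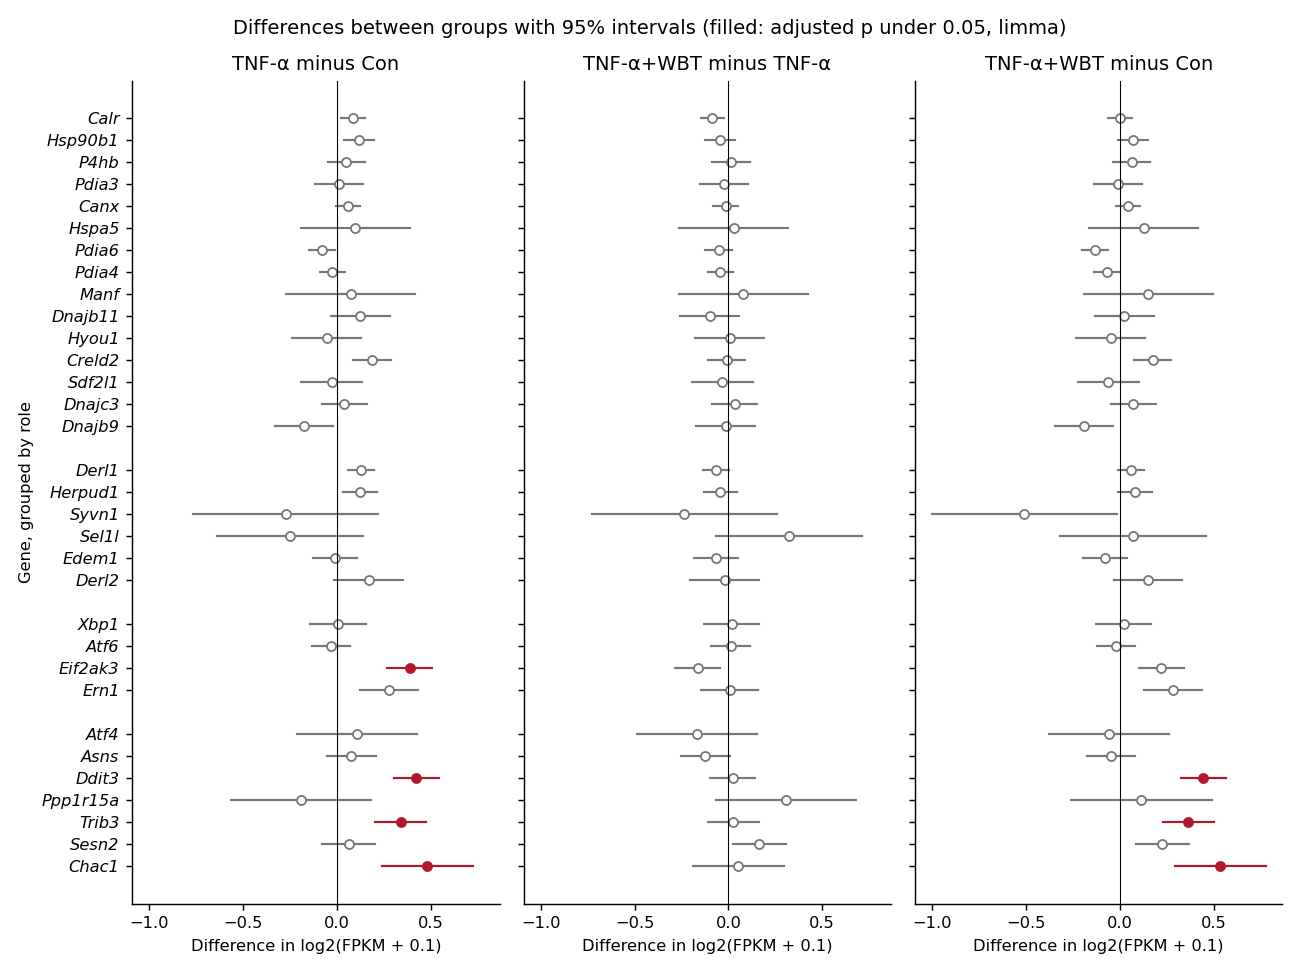
Difference in log2(FPKM + 0.1) between groups for 32 of the genes (Derl3 not drawn) with 95% intervals from limma, by role, where filled points have an adjusted p under 0.05. Ddit3, Trib3, Chac1 and Eif2ak3 stand to the right in the first panel at 0.34 to 0.48, no point is filled in the second, and Ddit3, Trib3 and Chac1 are filled in the third.

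The integrated stress response held 3 of the 4 calls. Ddit3 (chr10:127290774-127296288, plus strand), the gene of the pro-apoptotic factor CHOP, was at 25.3, 22.7 and 24.7 FPKM in the Con libraries, 33.3, 32.0 and 32.2 in TNF-α and 32.8, 34.7 and 31.7 in TNF-α+WBT. Every library with TNF-α lay above every Con library. The mean rose from 24.2 ± 1.34 to 32.5 ± 0.718 FPKM (SD, n = 3), a log2 difference of 0.42 ± 0.05 (SE) with an adjusted p of 0.00219 in limma. Ddit3 shares 68 exon bases with Mars on the opposite strand, 3.97% of its own exon bases, and whether strand was used in counting is not given in the sources used here.

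Trib3 (chr2:152337422-152344032, minus strand) stood at 6.44, 6.60 and 6.32 FPKM in Con, 8.09, 8.14 and 8.35 in TNF-α and 7.79, 8.62 and 8.63 in TNF-α+WBT. Again no TNF-α library overlapped Con, and the log2 difference was 0.34 ± 0.06 (SE) with an adjusted p of 0.0128. Chac1 (chr2:119351229-119354381, plus strand) stood at 3.11, 3.82 and 3.12 FPKM in Con, 4.85, 5.07 and 4.22 in TNF-α and 4.81, 4.94 and 4.90 in TNF-α+WBT. Its log2 difference, 0.48 ± 0.11 (SE), was the widest of the 33 genes, and its adjusted p of 0.0387 was the closest of the 4 to the threshold. Trib3 and Chac1 rested on 251 to 358 and 105 to 189 estimated fragments per library. Chac1 was no longer called without Con 1, Con 3, TNF-α 1 or TNF-α 2, nor without any 1 of the TNF-α+WBT libraries, with adjusted p of 0.0207 to 0.131 over the 9 libraries left out in turn. Trib3 was no longer called without Con 3 or TNF-α 3, with adjusted p of 0.0525 and 0.0564. Ddit3 and Eif2ak3 were called with each of the 9 libraries left out.

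The other 4 genes of the integrated stress response did not pass. Atf4 was at 108, 102 and 120.3 FPKM in Con, 113, 112 and 132 in TNF-α and 126, 83.9 and 111 in TNF-α+WBT, and its groups overlapped. Its 95% interval for TNF-α against Con, 0.863-fold to 1.35-fold, holds the folds seen for Ddit3 and Trib3, so a change of that size in Atf4 mRNA could not be told from none. Asns (asparagine synthetase) and Sesn2 (sestrin 2, an inhibitor of mTORC1) differed by 0.08 ± 0.06 and 0.06 ± 0.06 on the log2 scale, and their intervals ended at 1.15-fold. Ppp1r15a (GADD34, which brings phosphatase to eIF2α) was spread in Con, at 7.66, 12.2 and 8.85 FPKM, and its difference of -0.19 ± 0.16 was within that spread.

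**Figure D3:**
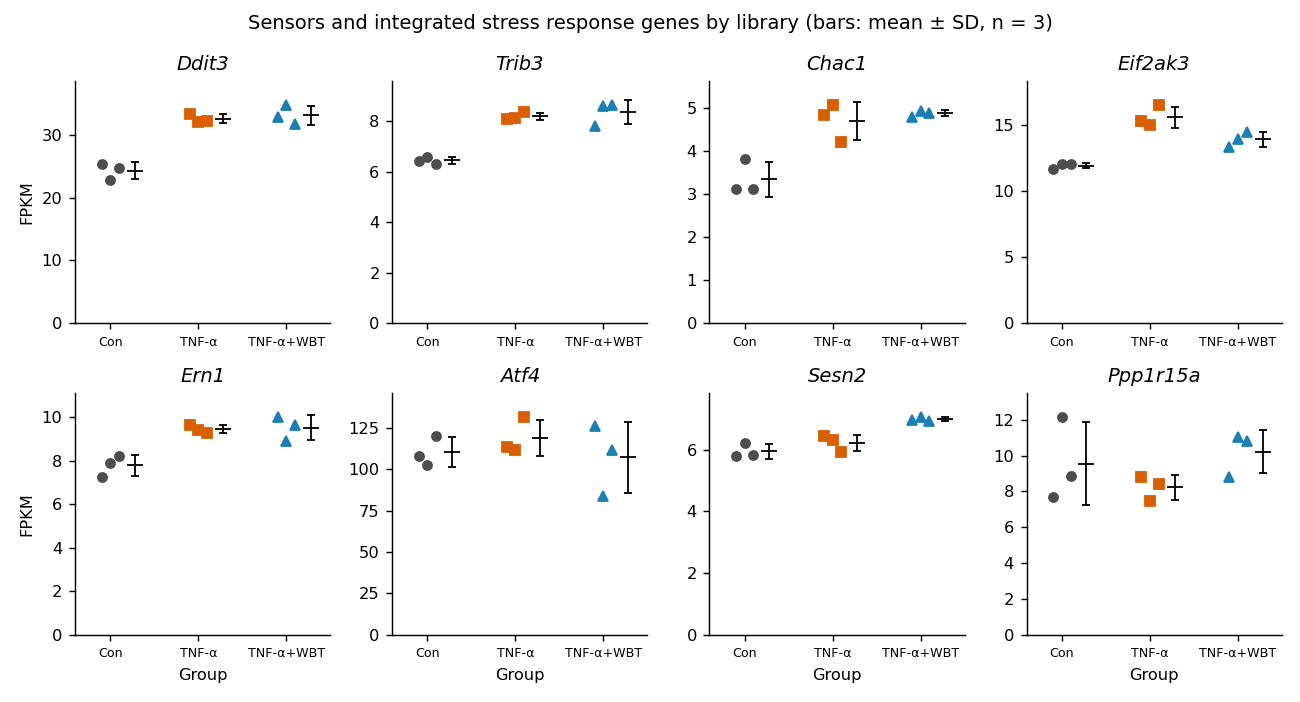
FPKM by library for 8 genes of the sensors and the integrated stress response, 3 points per group with the mean ± SD (n = 3) beside them, on axes that start at 0. For Ddit3, Trib3, Chac1, Eif2ak3 and Ern1 the TNF-α points lie above all Con points, from 22.7 to 25.3 against 32.0 to 33.3 FPKM for Ddit3, while the Atf4 and Ppp1r15a points of the groups overlap.

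Among the sensors, the PERK gene rose. Eif2ak3 (chr6:70844515-70905245, plus strand) was at 11.7, 12.0 and 12.0 FPKM in Con, 15.3, 15.0 and 16.5 in TNF-α and 13.4, 14.0 and 14.5 in TNF-α+WBT. The 3 groups did not overlap, with TNF-α highest and TNF-α+WBT between. The difference between TNF-α and Con was 0.39 ± 0.05 (SE), or 1.31-fold, with an adjusted p of 0.00359 in limma. Ern1, the IRE1 gene, was at 7.26, 7.87 and 8.23 FPKM in Con, 9.64, 9.41 and 9.27 in TNF-α and 10.0, 8.88 and 9.62 in TNF-α+WBT. All 6 libraries with TNF-α were above Con, but the adjusted p of 0.0561 for a log2 difference of 0.28 ± 0.07 missed the threshold, which it passed under 3 of 10 other settings (adjusted p from 0.034 to 0.126). Atf6 differed by -0.03 ± 0.05 and Xbp1 by 0.01 ± 0.06, and their 95% intervals, 0.910-fold to 1.05-fold and 0.906-fold to 1.11-fold, leave out a change of the size seen for Eif2ak3.

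The chaperones and folding enzymes changed little. None of the 15 was called at an adjusted p under 0.05, where 2.94% of all genes tested were called higher and 1.93% lower. In 15 genes, 0 calls is near those shares. In limma 5 had an unadjusted p under 0.05 (3 higher, 2 lower). The share was 16.1% over all genes and 24.1% over those that averaged 1 FPKM or more. For 12 of the 15 the 95% interval lay within 1.25-fold in either direction. Calr was at 435, 439.6 and 439.7 FPKM in Con, 461, 471 and 464 in TNF-α and 439.8, 437 and 439 in TNF-α+WBT. TNF-α stood apart from both other groups by a small margin, 1.06-fold above Con with an adjusted p of 0.147. Hsp90b1 was 1.08-fold higher (adjusted p = 0.12), with 393, 393 and 381 FPKM in Con and 412, 431 and 423 in TNF-α. Creld2, a secreted protein that acts in ER folding, came nearest to a call, at 29.9, 28.2 and 29.1 FPKM in Con, 31.4, 34.4 and 33.3 in TNF-α and 33.3, 32.1 and 33.1 in TNF-α+WBT. Its log2 difference was 0.18 ± 0.04 with an adjusted p of 0.0524, and it was called when 1 library, TNF-α 1, was left out (0.0367, in a range of 0.0367 to 0.16 over the libraries left out).

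Both folding genes with an unadjusted p under 0.05 in the other direction were lower in all 3 TNF-α libraries than in Con. Pdia6, a protein disulfide isomerase that tunes PERK and IRE1 signalling, was at 108, 109.7 and 109 FPKM in Con and 99.5, 104 and 106 in TNF-α (log2 -0.08 ± 0.03, adjusted p = 0.241). Dnajb9 (ERdj4), a co-chaperone of BiP that represses IRE1, was at 11.7, 10.4 and 10.4 FPKM in Con and 9.58, 9.98 and 9.14 in TNF-α (log2 -0.17 ± 0.07, adjusted p = 0.245). Canx (calnexin), P4hb, Pdia3, Pdia4, Dnajb11, Dnajc3 (p58IPK), Hyou1, Sdf2l1 and Manf differed by -0.06 to 0.12 on the log2 scale, each with an adjusted p above 0.3. Hspa5 was at 133, 107 and 133 FPKM in Con, 145, 110.0 and 145 in TNF-α and 142, 123 and 140 in TNF-α+WBT. Replicate 2 was the low library of each group, and the difference of 0.10 ± 0.13 between TNF-α and Con was within the spread. The labels do not say whether same-numbered libraries were handled together.

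None of the 7 genes of ER-associated degradation was called, where 2.94% of all genes tested were called higher and 1.93% lower. In 7 genes, 0 calls is near those shares. In limma 2 had an unadjusted p under 0.05, both higher. The share was 16.1% over all genes and 24.1% over those that averaged 1 FPKM or more. Derl1, part of the retrotranslocation channel, was at 42.7, 42.8 and 43.1 FPKM in Con, 46.4, 47.9 and 46.1 in TNF-α and 44.0, 44.5 and 45.4 in TNF-α+WBT, and the 3 groups did not overlap. The TNF-α difference of 0.13 ± 0.03 had an adjusted p of 0.0558 in limma, and it passed under 3 of 10 other settings (adjusted p from 0.0348 to 0.339). Herpud1, a membrane scaffold of the degradation complex, was at 43.0, 42.4 and 42.4 FPKM in Con and 46.6, 48.7 and 44.1 in TNF-α (log2 0.12 ± 0.04, adjusted p = 0.144). Derl2 differed by 0.17 ± 0.08 and Edem1, which draws mannose-trimmed glycoproteins into the pathway, by -0.01 ± 0.05. Syvn1 (the ubiquitin ligase HRD1) and its partner Sel1l varied more within groups than the other degradation genes except Derl3, with log2 differences of -0.27 ± 0.22 and -0.25 ± 0.17.

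Set beside the promoters, none of the 9 genes with the ER stress response element was called for TNF-α in the fit of all 25417 genes. Neither of the genes with its second form was called there, and the log2 differences of these genes ran from -0.27 (Syvn1) to 0.18 (Creld2). Of the 4 genes with the ATF4 element, Chac1 and Trib3 were called in the same fit and Asns and Herpud1 were not. The shares there were 2.94% higher and 1.93% lower over all genes tested, and 5.09% and 3.28% over those that averaged 1 FPKM or more. Groups of 9, 2 and 4 genes are too small for these counts to compare the elements, which was not tested. The calls depended on the genes fitted. Calr and Creld2 were called when only genes averaging 1 FPKM or more were fitted, and Calr, Creld2 and Herpud1 with coding transcripts alone. Ddit3 and Eif2ak3, which were called, held neither element in the window searched.

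The second comparison asked what WBT added to TNF-α, and it shares the TNF-α libraries with the first. No gene of the 33 was called at an adjusted p under 0.05 in limma, where the lowest adjusted p was 0.675, and 0.00393% of all genes tested were called. At an unadjusted p under 0.05, 3 of the 33 passed, against 6.31% of all genes and 6.91% of those that averaged 1 FPKM or more. With a fold change over 2 as well, 0 passed, against 1.12% of all genes. Of the 3, Eif2ak3 was lower by 0.16 ± 0.05 on the log2 scale, Calr was lower by 0.09 ± 0.03 (values in both cases given above), and Sesn2 was higher by 0.17 ± 0.06. Sesn2 stood at 6.44, 6.30 and 5.92 FPKM in TNF-α and 6.95, 7.06 and 6.93 in TNF-α+WBT, which did not overlap.

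The groups did not overlap for 2 genes that were higher with WBT, Sesn2 and Ppp1r15a, and for 5 that were lower, Asns, Calr, Derl1, Eif2ak3 and Pdia4. The shares over all genes were 5.39% and 5.61%, and over those that averaged 1 FPKM or more 6.67% and 6.44%. Ddit3, Trib3 and Chac1 had log2 differences of 0.02 ± 0.05, 0.03 ± 0.06 and 0.05 ± 0.11 with WBT, and the 95% interval of Ddit3 ran from 0.936-fold to 1.10-fold. For 27 of the 33 genes the interval lay within 1.25-fold in either direction. The exceptions were Manf, Sel1l, Syvn1, Derl3, Atf4 and Ppp1r15a, whose intervals reached beyond 1.25-fold, so a larger change in them was not excluded.

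The third comparison, TNF-α+WBT against Con, uses the Con libraries of the first and the TNF-α+WBT libraries of the second. In it 3 of the 33 genes were called higher and 0 lower, against 2.31% and 1.4% of all genes and 4.09% and 2.37% of those that averaged 1 FPKM or more. They were Ddit3 (0.45 ± 0.05, adjusted p = 0.00203), Trib3 (0.37 ± 0.06, adjusted p = 0.0111) and Chac1 (0.54 ± 0.11, adjusted p = 0.0293). Chac1 was not called without Con 1, Con 3, TNF-α 1 or any 1 of the TNF-α+WBT libraries. Eif2ak3 and Ern1 had differences of 0.22 ± 0.05 and 0.28 ± 0.07 with adjusted p of 0.0602 and 0.0594, and Pdia6 one of -0.13 ± 0.03 with 0.0594. At an unadjusted p under 0.05, 11 of the 33 passed, 7 higher and 4 lower. The share was 14.7% over all genes and 21.6% over those that averaged 1 FPKM or more. None of the 33 also had a fold change over 2, against 2.29% of all genes.

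The deposited transcript table showed which annotated transcripts carried these values. The 33 genes have 142 transcripts, of which 131 were tested. In TNF-α against Con 3 were called at an adjusted p under 0.05, with 0.635% of the 80149 transcripts tested as background, and in TNF-α+WBT against TNF-α 1 was called, with 0.0424% as background. Trib3-202 is 1 of the 3 and the only 1 in the second comparison, and neither count supports a difference through it, for the reason given below. Ddit3-201, a coding transcript with 76.0% to 85.6% of the gene's FPKM, was at 19.2, 17.7 and 19.5 FPKM in Con and 26.6, 25.7 and 26.5 in TNF-α, a log2 difference of 0.48 ± 0.06 with an adjusted p of 0.0135. Hsp90b1-204, a retained-intron transcript that held 0.473% to 1.13% of its gene, was at 1.94, 1.98 and 1.80 FPKM in Con, 3.64, 4.02 and 4.76 in TNF-α and 2.90, 3.13 and 2.82 in TNF-α+WBT. Its 3 groups did not overlap, and the TNF-α difference was 1.07 ± 0.14 (adjusted p = 0.0154). Trib3-202, a processed transcript without a coding sequence, was listed at 0 in all Con and all TNF-α+WBT libraries and at 0.491, 0.378 and 0.402 FPKM in TNF-α, which is at most 6.61 estimated fragments. It passed the filter on low values only through the 3 TNF-α libraries, so its calls in both comparisons followed from the filter, and neither a p nor a fold is given for it.

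The spread within groups in Hspa5 and Syvn1 went with single transcripts. Non-coding transcripts held 14.7% to 38.7% of Hspa5, and 1 of them, Hspa5-206, ranged from 12.1 to 51.7 FPKM. Hspa5-206 was lowest in replicate 2 of each group, at 13.0 FPKM in Con, 12.1 in TNF-α and 29.9 in TNF-α+WBT. The coding transcripts of Hspa5 were steady, at 85.3, 88.7 and 82.5 FPKM in Con, 90.2, 93.8 and 92.2 in TNF-α and 87.3, 87.4 and 87.9 in TNF-α+WBT. On that count TNF-α lay above both other groups, by a log2 difference of 0.11 ± 0.03 over Con with an adjusted p of 0.092. The mean within-group coefficient of variation fell from 11.7% for the whole gene to 1.99% for the coding sum.

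Manf, a secreted cofactor of BiP, did not become steadier in this way. Its retained-intron transcript Manf-205 ran from 0.539 to 42.9 FPKM, and its coding sum was 37.0, 50.2 and 49.0 FPKM in Con, 48.2, 47.1 and 62.8 in TNF-α and 42.5, 46.9 and 31.8 in TNF-α+WBT. Syvn1 was low as a gene in TNF-α 1, TNF-α+WBT 2 and TNF-α+WBT 3, at 21.7, 20.7 and 21.8 FPKM, against 32.2 to 36.5 in the other 6 libraries. In those 3 libraries Syvn1-204 was at 0.148, 0.459 and 0.708 FPKM and Syvn1-207 at 8.40, 9.99 and 7.19 FPKM, whereas Syvn1-207 was listed at 0 in the other 6.

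Xbp1 was divided between a retained-intron transcript, Xbp1-202, with 49.6% to 57.3% of its FPKM, and 3 coding transcripts. The smallest intron among the annotated Xbp1 transcripts has 300 bases, so the short stretch that IRE1 removes is not annotated as an intron and the spliced form is not listed separately. The main coding transcript Xbp1-201 was at 11.1, 13.6 and 13.4 FPKM in Con, 13.2, 11.1 and 12.3 in TNF-α and 11.1, 13.0 and 11.5 in TNF-α+WBT, with overlapping groups.

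**Figure D4:**
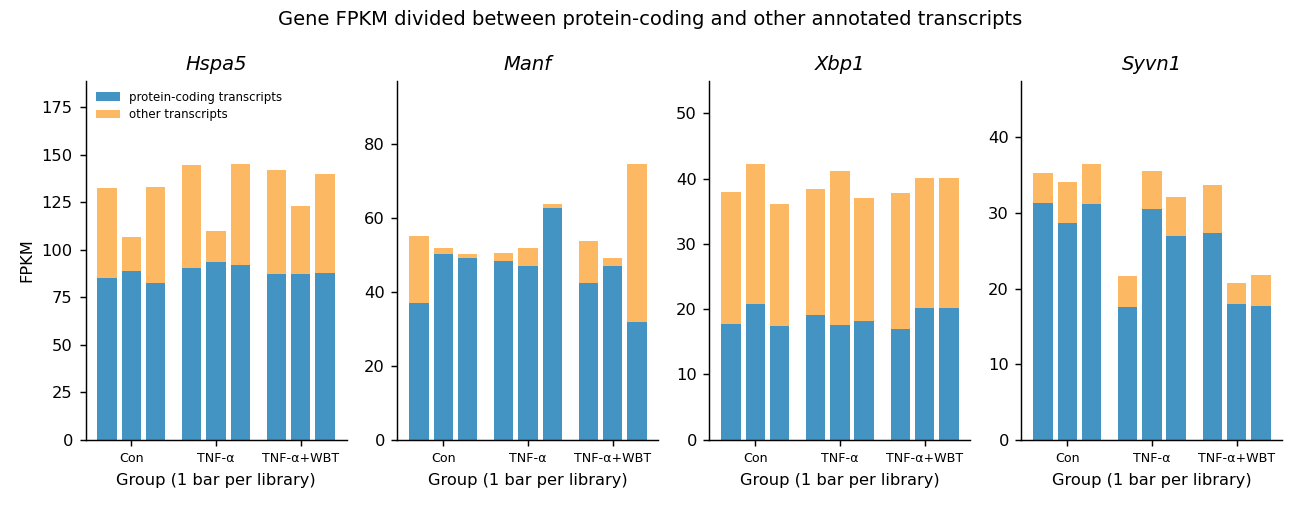
FPKM of Hspa5, Manf, Xbp1 and Syvn1 in each library, 1 stacked bar per library, split into protein-coding transcripts (lower part) and other annotated transcripts (upper part). The coding part of Hspa5 stays between 82.5 and 93.8 FPKM while the rest varies, and Syvn1 is low in 3 libraries, at 20.7 to 21.8 FPKM.

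When the model was refitted on the coding transcripts alone, an alternative chosen after seeing the data, 9 of the 33 genes were called for TNF-α, among 1218 of 15118 genes tested. They were the 4 named above and Calr (log2 0.09, adjusted p = 0.0448), Creld2 (0.18, 0.0376), Herpud1 (0.15, 0.0318), Derl1 (0.12, 0.0348) and Ern1 (0.27, 0.047), all higher. Derl3 could not be fitted there because its coding transcripts were above 0 in too few libraries.

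Further genes of these pathways were described through lists of 138 ER and stress response genes. Among 38 other targets of ATF4 and CHOP, 8 were higher and 3 lower in TNF-α than in Con at an adjusted p under 0.05. The shares were 2.94% and 1.93% over all genes tested, and 5.09% and 3.28% over those that averaged 1 FPKM or more. The median difference of the list was 0.10 on the log2 scale. The higher ones with the largest differences were Nupr1, a stress-induced chromatin protein (0.80 ± 0.18, adjusted p = 0.0444), Jdp2, a bZIP repressor (0.57 ± 0.07, 0.00251), Bbc3, which encodes the pro-apoptotic protein PUMA (0.48 ± 0.04, 0.000255), and Tnfrsf10b, the death receptor DR5 (0.44 ± 0.07, 0.00921). The 3 lower ones were Atf3 (-1.59 ± 0.05, 5.71e-07), Stc2 (-1.35 ± 0.05, 3.07e-06) and Cbs (-1.29 ± 0.27, 0.0289). The list therefore did not move in 1 direction.

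Atf3, a stress-induced bZIP factor, had a wider difference than any of the 33 genes. It was at 63.1, 62.0 and 62.7 FPKM in Con, 21.5, 19.5 and 21.2 in TNF-α and 28.7, 27.6 and 26.9 in TNF-α+WBT, so the 3 groups did not overlap. Stc2, the secreted glycoprotein stanniocalcin 2, was ordered in the same way, at 30.0, 32.5 and 31.1 FPKM in Con, 12.8, 12.4 and 11.4 in TNF-α and 15.2, 15.2 and 15.0 in TNF-α+WBT. With WBT the differences from TNF-α were 0.42 ± 0.05 for Atf3 and 0.31 ± 0.05 for Stc2, with adjusted p of 0.0794 and 0.249. Cbs was below 1 FPKM in all libraries.

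**Figure D5:**
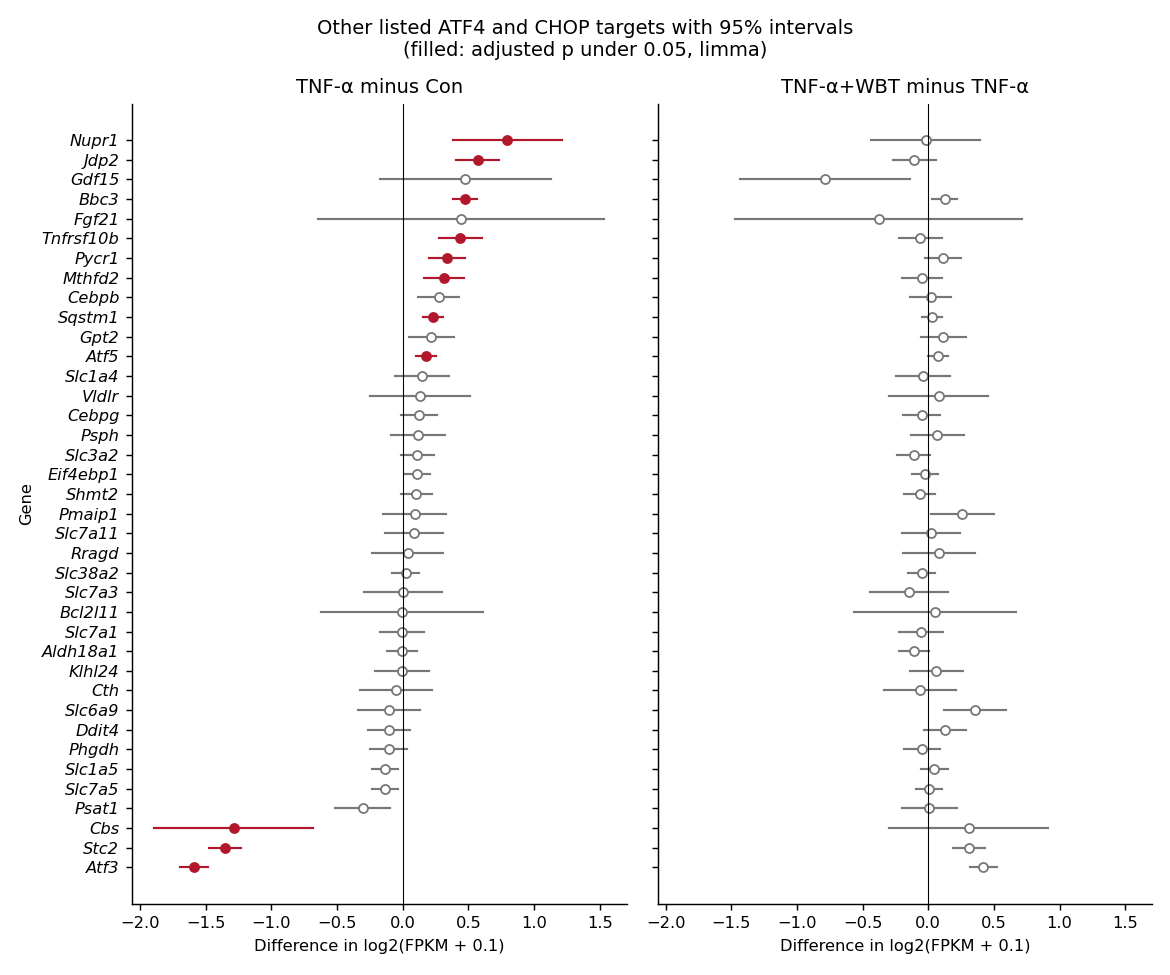
Difference in log2(FPKM + 0.1) with 95% limma intervals for the 38 other listed targets of ATF4 and CHOP, ordered by the TNF-α difference, where filled points have an adjusted p under 0.05. Nupr1, Jdp2, Bbc3 and Tnfrsf10b lie at 0.44 to 0.80 on the right of the first panel, Cbs, Stc2 and Atf3 at -1.29 to -1.59 on the left, and no point is filled in the second panel.

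In TNF-α against Con, calls in the lists of ER genes were about as frequent as over all genes tested. There 2.94% were called higher and 1.93% lower, and 5.09% and 3.28% of those that averaged 1 FPKM or more. Counts this small do not set the lists apart from these shares. Of 35 other genes of ER folding, glycosylation and quality control, 1 was higher, the glucosyltransferase and folding sensor Uggt1 (0.28 ± 0.04, adjusted p = 0.00793), and 0 were lower. Of 19 translocation genes, 1 was higher, the signal peptidase subunit Spcs3 (0.19 ± 0.04, 0.0383). Of 21 other degradation genes none was called. Of 24 tested among 25 other sensors, regulators and genes of eIF2 control, 1 was higher and 2 lower. These were the ER-anchored factor Creb3l1 (0.32 ± 0.06, 0.0246), its relative Creb3l2 (-0.21 ± 0.04, 0.026) and Mbtps2, the protease that with Mbtps1 releases ATF6 (-0.19 ± 0.04, 0.0372). For TNF-α against Con, 9, 6, 2 and 10 genes of the 4 ER lists in order had an unadjusted p under 0.05 in limma. Of these 7, 6, 2 and 6 were higher. The share was 16.1% over all genes tested and 24.1% over those that averaged 1 FPKM or more. No gene of these lists was called in TNF-α+WBT against TNF-α. There 3, 1, 1 and 2 genes of the 4 ER lists in the order given had an unadjusted p under 0.05. So had 7 of the 38 ATF4 and CHOP targets, against 6.31% of all genes tested.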

How the data were processed

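RNA-seq data of 9 libraries were analysed. The deposited tables hold FPKM per gene (56289) and per transcript (144726), which the authors' workflow traces to HISAT2, StringTie and Ballgown; versions and genome build are not given in the sources used here. GENCODE M21 (GRCm38) held 98.1% of the gene identifiers and gave names, positions and transcript types. For the 33 genes, gene and transcript-sum FPKM differed by at most 4.5e-05. No pair of libraries was identical.

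The 25417 genes with FPKM above 0 in 3 or more libraries were fitted on log2(FPKM + 0.1) with limma 3.58.1 (lmFit, eBayes with trend; R 4.3.3), 1 mean per group over all 9 libraries, with Benjamini-Hochberg adjustment over all genes; transcripts likewise. SD are over 3 libraries, SE and 95% intervals from limma. Single-gene exact permutation tests were not used, since 3 against 3 cannot go below 0.1. Tables and motifs were handled in Python 3.11.15. The model was also run on simulated normal values with changes larger than the folds called here, so that run does not cover folds of this size. Named genes were all 33, listed pathway genes at an adjusted p under 0.05 in TNF-α against Con (at most 4 in each direction per list), identity markers, and transcripts of Xbp1 or called. Transcripts of Hspa5, Manf and Syvn1 and the unadjusted order of genes were picked after their values were seen. The members and lists were chosen with earlier results of these data known. Depth was estimated from 10703 genes with 1 transcript over 1000 bases; intervals cover spread between libraries only. Ddit3 has 2 identifiers in GENCODE M21, and the longer locus was used. Alternatives covered the pseudocount, filters, trend, 2-group models, centring, quantile normalization, a replicate block, each library left out, and coding transcripts. Of the marker lists, 1 gene is not reported here and was left out of its list's count and sum.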

Additional observations from a re-analysis of the deposited data

How the results depend on the processing

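Directions of called genes did not change under any alternative run. For TNF-α against Con, 4 genes were called at an adjusted p under 0.05, among 1236 of 25417 genes tested. With only genes that averaged 1 FPKM or more fitted, 8 were called (Calr, Creld2, Derl1 and Ern1 added), among 1369 of 12686. Protein-coding transcripts only (chosen after seeing the data) gave 9, among 1218 of 15118. A pseudocount of 1 gave 6, and a fit without a trend or with only the 2 groups compared gave 3. With 1 library left out, 2 to 4 were called. The 12 genes with an unadjusted p under 0.05 became 7 without a trend; the cause was not tested. For TNF-α+WBT against Con, 3 genes were called, among 942 of 25417. With only genes that averaged 1 FPKM or more fitted, 6 were called (Pdia6, Ern1 and Eif2ak3 added), among 1055 of 12686. With 1 library left out, 2 to 3 were called. For TNF-α+WBT against TNF-α, 0 were called under every alternative; with 1 library left out, 2 to 5 genes had an unadjusted p under 0.05 (5 without TNF-α 1 or without TNF-α+WBT 1) and 0 to 1 also a fold change over 2, namely Derl3 without TNF-α+WBT 1, at under 10 fragments. Over the genes that averaged 1 FPKM or more, same-numbered libraries did not deviate together (correlations from -0.067 to 0.095), though Hspa5 was lowest in replicate 2 of every group. With a replicate block, 3, 0 and 3 genes were called in the 3 comparisons, Chac1 being lost in the first (adjusted p = 0.0523). Quantile normalization brought Calr from 0.09 to 0.06 and Hsp90b1 from 0.12 to 0.05 on the log2 scale. Derl3, Chac1 and Trib3-202 rest on few fragments; FPKM and annotated transcripts show neither XBP1 splicing nor translation of ATF4.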

Other observations

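Gene groups of neighbouring stress pathways were also listed. Of all genes tested, 2.94% were called higher and 1.93% lower in TNF-α than in Con. Of 20 cytosolic heat shock genes, which answer misfolded protein outside the ER, 0 were higher and 2 lower at an adjusted p under 0.05 in limma. Hspd1, a mitochondrial chaperonin that the list includes, was at 239.7, 223 and 227 FPKM in Con and 189, 195 and 189.9 in TNF-α (log2 -0.26 ± 0.04, adjusted p = 0.00368). Bag3, a co-chaperone of HSP70, was at 41.2, 39.7 and 42.0 FPKM in Con and 37.1, 36.8 and 37.2 in TNF-α (log2 -0.15 ± 0.03, adjusted p = 0.0487). Of 20 cytosolic aminoacyl-tRNA synthetases, several of which are known ATF4 targets, 2 were higher and 0 lower: Vars (0.18 ± 0.03, adjusted p = 0.0134) and Aars (0.17 ± 0.03, adjusted p = 0.0235). The median differences of these lists were -0.08 and 0.01 on the log2 scale. In TNF-α+WBT against TNF-α neither list held a call. There 0 heat shock genes and 2 synthetases had an unadjusted p under 0.05, against 6.31% of all genes tested.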
